A study of Mus musculus with 10 samples.

Results

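The transcripts of 59 genes of DNA replication and of the G1/S transition were followed in sorted neural crest cells of mouse embryos at embryonic day 10.5. The genes are a list given by symbol and drawn up by function, with earlier results of these data known. Each symbol was matched to 1 row of the deposited counts. The list makes up 59 of the 49671 genes listed, and all 59 were among the 14528 genes with enough counts to be tested, so no member was lost to the filter on low counts. By role they fall into 8 groups, from the MCM helicase to the proteins that rebuild chromatin behind the fork.

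Each of the 10 libraries came from the green fluorescent cells of a single embryo, sorted by flow cytometry, and polyadenylated RNA was sequenced. In the 5 embryos called p53_activated here (genotype Wnt1Cre;R26mTmG;p53LSL-25,26/+), Wnt1-Cre turned on a membrane-bound green reporter and also released a stabilised p53 from an engineered allele that sits beside a normal one. The 5 control embryos (Wnt1Cre;R26mTmG;p53+/+) were littermates, so every embryo carried the recombinase and the reporter, on a mixed 129/Sv-C57BL/6 background. Wnt1-Cre is active in the dorsal neural tube, from which the neural crest arises, so neural tube cells can be marked too, and only RNA with a high integrity number was taken into libraries per the labels' protocols. Xist and Y-linked transcripts put 3 females and 2 males among the p53_activated embryos and 2 females and 3 males among the control embryos. The comparison asks what a raised p53 activity does to the transcripts of these cells.

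The MCM complex is the ring-shaped helicase of the replication fork. It is loaded onto origins in G1 by the origin recognition complex with Cdc6 and Cdt1, and it is switched on at the start of S phase by the Dbf4-dependent kinase Cdc7, Cdc45 and the GINS complex. Entry into S phase depends on D-type cyclins with Cdk4 or Cdk6 and on E-type cyclins with Cdk2, which phosphorylate the RB proteins and so free E2F factors to transcribe many genes of this list. p53 acts on this step through Cdkn1a, whose product p21 binds and inhibits cyclin-CDK complexes, and the neural crest is a tissue in which excess p53 activity is known to disturb development.

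The p53_activated libraries held 14644162 to 28379562 counts and the control libraries 12368058 to 23514828. Levels are CPM, counts scaled to library size with TMM factors, and a call is an adjusted p under 0.05 in the edgeR quasi-likelihood test over all genes tested. The labels were checked first by the p53 pathway. Cdkn1a averaged 105 ± 11.9 CPM in p53_activated embryos and 7.93 ± 1.59 CPM in control embryos (SD, n = 5 each), and its log2 fold change was 3.73 ± 0.14 (SE) with an edgeR adjusted p of 1.74e-10. Mdm2, the ubiquitin ligase that p53 induces and that degrades p53, averaged 47.3 ± 4.41 CPM in p53_activated embryos and 24.5 ± 1.06 CPM in control embryos (SD, n = 5 each; log2 fold change 0.95 ± 0.10, edgeR adjusted p = 2.48e-05). Trp53 itself rose by a log2 fold change of 0.67 ± 0.17 (edgeR adjusted p = 0.0264). That call was lost in 5 of 23 alternatives, among them the fits without p53_activated replicate 4 (adjusted p = 0.0558), control replicate 2 (0.0716) and control replicate 3 (0.0569). The 8 neural crest markers read (Sox10, Foxd3, Tfap2a, Tfap2b, Twist1, Snai2, Prrx1 and Msx1) were present in both groups, with summed levels of 321 to 401 CPM in p53_activated and 344 to 471 CPM in control libraries. Of these, 1 was called, Snai2, which fell to 8.83 ± 1.69 CPM in p53_activated embryos, against 17.04 ± 7.83 CPM in control embryos (SD, n = 5 each; edgeR adjusted p = 0.0416). Of 10 markers of differentiating neurons, 9 were called lower and all 10 had fold changes below 0. Their summed levels were 341 to 547 CPM in p53_activated and 682 to 890 CPM in control libraries. The part of that difference in the results on replication genes was not tested. In sorted bulk cells, fewer cells expressing a gene and less RNA per cell cannot be told apart.

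Of the 59 genes, 4 were higher in p53_activated embryos (Ccnd1, Chaf1a, Uhrf1 and Rrm2) and 0 were lower. This is 6.78% of the list called higher, beside 4.49% of all genes tested called higher, 2.74% called lower and 7.23% called in either direction. For lower members the count was also 0 at an unadjusted p under 0.05 and 0 with DESeq2 and with limma-voom, while 13 members were higher at an unadjusted p under 0.05, where 12% of all genes tested were. At that limit 10.6% of all genes tested were lower. With DESeq2, 6 members were called higher, where 5.6% of all genes it tested were. In 5 members the p53_activated and control embryos did not overlap, all with the p53_activated embryos on top (Ccnd1, Ccnd2, E2f3, Chaf1a and Uhrf1). Among all genes tested, 4.54% separated in that direction, 3.52% in the other and 8.07% in either. The median log2 fold change of the 59 was 0.10, within a span of -0.21 to 0.85, and the median of all genes tested was -0.01. Fold changes lay above 0 for 44 of 59 members (74.6%) and for 48.6% of all genes tested. The median standard error of a member's log2 fold change was 0.13, and the standard errors ran from 0.08 to 0.28.

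**Figure D1:**
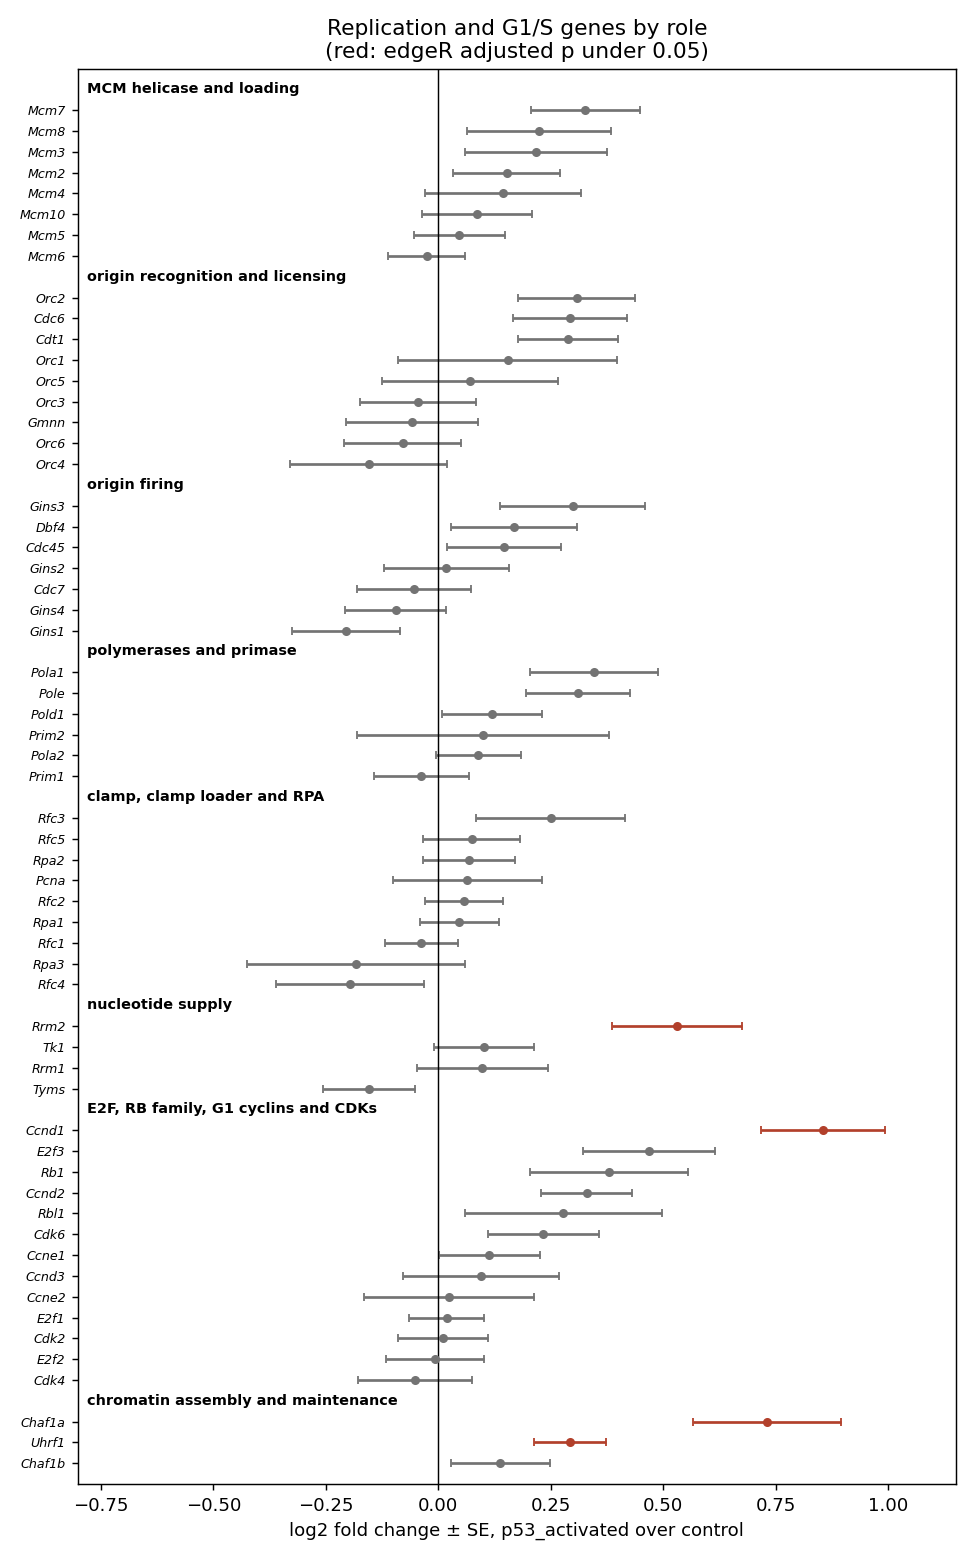
Log2 fold change of each of the 59 genes, p53_activated over control, on the horizontal axis, with the genes listed by role group down the page. Points are fitted values, bars are ± 1 SE, and red marks the 4 genes with an edgeR adjusted p under 0.05. The values run from -0.21 to 0.85, and the red points are Ccnd1, Chaf1a, Rrm2 and Uhrf1.

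The G1 regulators held the largest change of the list. Ccnd1, which encodes cyclin D1 (ENSMUSG00000070348, GRCm38 chr7:144929931-144939925, minus strand), rose 1.81-fold. Its levels were 61.7, 53.8, 72.3, 79.4 and 87.4 CPM in the p53_activated embryos, against 38.6, 35.4, 46.4, 32.6 and 42.98 CPM in the control embryos. Every p53_activated embryo was above every control embryo, and p53_activated replicates 4 and 5 were the highest. The means were 70.9 ± 13.5 CPM in p53_activated and 39.2 ± 5.58 CPM in control embryos (SD, n = 5 each), and the log2 fold change was 0.85 ± 0.14 with an edgeR adjusted p of 0.00109. It was called in 23 of 23 alternatives, with log2 fold changes of 0.68 to 0.94. Exons of Ccnd1 share 23.36% of their length with LTO1 on the opposite strand, whose own log2 fold change was -0.15 (edgeR adjusted p = 0.587).

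Ccnd2, encoding cyclin D2 (ENSMUSG00000000184, GRCm38 chr6:127125162-127152193, minus strand), had 369, 378, 382, 367 and 453 CPM in the p53_activated embryos, against 284, 253, 347, 322 and 344 CPM in the control embryos. The groups did not overlap, control replicates 1 and 2 were the lowest and p53_activated replicate 5 stood above the rest. The log2 fold change of 0.33 ± 0.10 missed the threshold (edgeR adjusted p = 0.0582) and passed in 3 of 23 alternatives, one of them the fit without control replicate 3 (0.38, edgeR adjusted p = 0.0426). Ccnd3, encoding cyclin D3, overlapped between the groups, with means of 39.2 ± 9.16 CPM in p53_activated and 36.7 ± 7.58 CPM in control embryos (SD, n = 5 each) and a log2 fold change of 0.10 ± 0.17 (edgeR adjusted p = 0.8). On the TPM scale, which also corrects for exon length, the 3 D-type cyclins summed to 140 ± 17.4 TPM in p53_activated embryos and 105 ± 13.0 TPM in control embryos (SD, n = 5 each). Cyclin D2 held most of that sum, at 68.1 ± 3.78% in p53_activated and 72.4 ± 3.34% in control embryos (SD, n = 5 each). Cyclin D1 held 23.4, 20.9, 25.2, 27.4 and 25.9% in the p53_activated embryos, against 19.50, 19.00, 19.00, 15.6 and 18.4% in the control embryos. The shares of cyclin D1 did not overlap, and their means were 24.6 ± 2.51% in p53_activated and 18.3 ± 1.54% in control embryos (SD, n = 5 each).

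**Figure D2:**
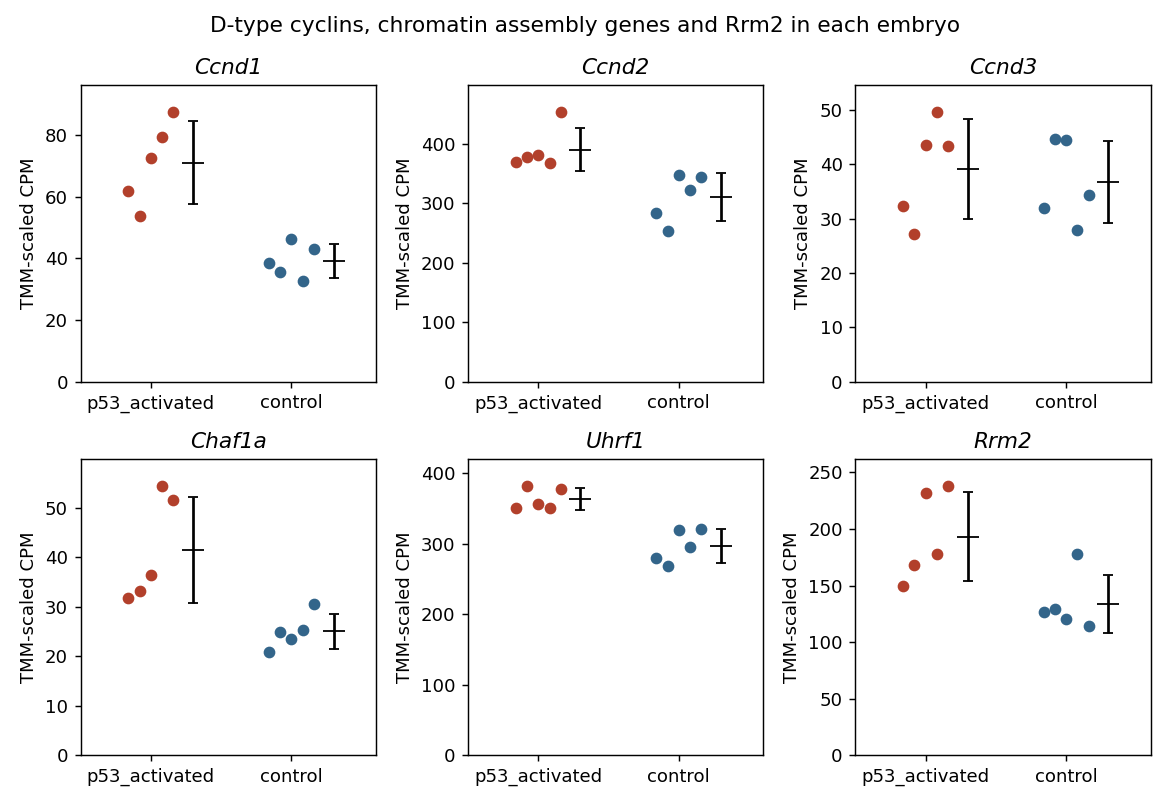
TMM-scaled CPM of the 3 D-type cyclins, Chaf1a, Uhrf1 and Rrm2 on the vertical axes, with p53_activated embryos left of control embryos in each panel. Each point is 1 embryo and the black marks are the mean ± SD of 5. Ccnd1, Ccnd2, Chaf1a and Uhrf1 do not overlap between the groups, Ccnd3 does, and Rrm2 does through control replicate 4 at 178 CPM.

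The kinases that partner the D-type cyclins did not pass the test. Cdk4 had the highest level per length of all 59 genes, at 341 ± 26.95 TPM in p53_activated and 358 ± 72.2 TPM in control embryos (SD, n = 5 each). Its levels were 539.8, 461, 518, 434 and 472 CPM in the p53_activated embryos, against 340.2, 498, 503, 599.8 and 570.3 CPM in the control embryos. The p53_activated embryos lay within the control range, whose lowest value was control replicate 1 and whose highest was control replicate 4. The log2 fold change was -0.05 ± 0.13 (edgeR adjusted p = 0.86). Cdk6, the alternative partner, held 1.17 ± 0.18% of the summed Cdk4 and Cdk6 TPM in p53_activated embryos and 1.01 ± 0.37% in control embryos (SD, n = 5 each). Cdk6 had 22.1, 23.6, 23.9, 24.7 and 28.3 CPM in the p53_activated embryos, against 24.7, 18.7, 20.8, 19.2 and 20.8 CPM in the control embryos. In Cdk6, 4 control embryos lay below all p53_activated embryos and control replicate 1 lay among them, with a log2 fold change of 0.23 ± 0.12 (edgeR adjusted p = 0.279). Cdk2, the partner of the E-type cyclins, averaged 59.01 ± 6.11 CPM in p53_activated and 58.6 ± 4.55 CPM in control embryos (SD, n = 5 each), with a log2 fold change of 0.01 ± 0.10 (edgeR adjusted p = 0.965). Ccne1 and Ccne2, which encode the E-type cyclins, had log2 fold changes of 0.11 and 0.02, and Ccne1 held 94.4% of their summed TPM in p53_activated embryos and 94.1% in control embryos.

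Among the activator E2F factors, which switch on S phase genes, E2f3 was the least abundant per length and had the largest fold change. E2f3 had 19.2, 23.2, 19.1, 24.9 and 18.2 CPM in the p53_activated embryos, against 11.7, 15.2, 14.7, 17.9 and 16.3 CPM in the control embryos. The groups were separated by a narrow gap between p53_activated replicate 5 and control replicate 4. The log2 fold change of 0.47 ± 0.15 missed the threshold in edgeR (adjusted p = 0.0643) and passed with DESeq2 (adjusted p = 0.0367). E2f1 held 76.5 ± 2.03% of the summed TPM of the 3 factors in p53_activated embryos and 77.7 ± 1.80% in control embryos (SD, n = 5 each). E2f1 and E2f2 had log2 fold changes of 0.02 and -0.01. Of the pocket proteins that hold E2F in check, Rb1 had 17.8, 20.5, 20.3, 17.4 and 11.9 CPM in the p53_activated embryos, against 12.9, 10.1, 14.2, 17.3 and 12.9 CPM in the control embryos. The groups overlapped, with p53_activated replicate 5 below 4 of the control embryos, and the log2 fold change was 0.38 ± 0.18 (edgeR adjusted p = 0.21). Rb1 shares 14.9% of its exon length with Rcbtb2 and Lpar6, so its counts are uncertain. Rbl1, which encodes p107, was near the bottom of the list at 2.63 ± 0.544 TPM in p53_activated and 2.18 ± 0.541 TPM in control embryos (SD, n = 5 each), with a log2 fold change of 0.28 ± 0.22 (edgeR adjusted p = 0.502). In all, 1 of the 13 G1 regulators was called with edgeR, 3 with DESeq2 and 1 with limma-voom, and 0 were lower with any of them or at an unadjusted p under 0.05. Over all genes tested, 4.49% were called higher with edgeR and 5.6% with DESeq2, and 10.6% were lower at the unadjusted limit.

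The nucleotide supply group holds the ribonucleotide reductase subunits and 2 enzymes of thymidylate synthesis. Rrm2, the small subunit whose abundance follows S phase (ENSMUSG00000020649, GRCm38 chr12:24708241-24714146, plus strand), rose 1.44-fold. Its levels were 149.9, 168, 231, 178 and 238 CPM in the p53_activated embryos, against 127, 129, 120.3, 178 and 115 CPM in the control embryos. All p53_activated embryos were above 4 of the control embryos, and control replicate 4 lay among them. The means were 193 ± 39.4 CPM in p53_activated and 134 ± 25.2 CPM in control embryos (SD, n = 5 each), with a log2 fold change of 0.53 ± 0.15 and an edgeR adjusted p of 0.0402. The call was lost in 12 of 23 alternatives, over which the adjusted p ran from 0.00942 to 0.181. Among the fits without 1 library it held only without p53_activated replicate 1 or 2 or control replicate 4, and the other 7 gave log2 fold changes of 0.45 to 0.56 with adjusted p of 0.0572 to 0.0992. The large subunit Rrm1 had a log2 fold change of 0.10 ± 0.15 (edgeR adjusted p = 0.748). Thymidylate synthase (Tyms) had -0.15 ± 0.10 and thymidine kinase (Tk1) 0.10 ± 0.11 on the log2 scale, with edgeR adjusted p of 0.411 and 0.648. Rrm2b, the p53-inducible small subunit, belongs to the wider list given further on and did not pass (log2 fold change -0.45 ± 0.31, edgeR adjusted p = 0.429).

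In the chromatin group 2 of 3 genes were called higher, beside 4.49% of all genes tested. A group of 3, drawn up with earlier results known, is too small for its share to be read. Chaf1a, the large subunit of chromatin assembly factor CAF-1, which deposits histones on new DNA (ENSMUSG00000002835, GRCm38 chr17:56040439-56072289, plus strand), had 31.7, 33.3, 36.4, 54.5 and 51.5 CPM in the p53_activated embryos, against 20.8, 24.9, 23.5, 25.4 and 30.6 CPM in the control embryos. The groups did not overlap, and p53_activated replicates 4 and 5 were well above the other p53_activated embryos. The means were 41.5 ± 10.7 CPM in p53_activated and 25.05 ± 3.58 CPM in control embryos (SD, n = 5 each), a 1.66-fold difference, with a log2 fold change of 0.73 ± 0.16 and an edgeR adjusted p of 0.0136. Without p53_activated replicates 4 and 5 the log2 fold change was 0.44 (edgeR adjusted p = 0.09), and without control replicates 1 and 2 it was 0.65 (edgeR adjusted p = 0.0754). Erythroid marker transcripts summed to 6020 and 2907 CPM in p53_activated replicates 4 and 5, against 502 to 1497 CPM in the other p53_activated libraries and 828.7 to 4487 CPM in the control libraries, and their part in the Chaf1a difference was not tested. Epithelial markers summed to 122 and 101 CPM in those libraries, against 41.3 to 60.1 CPM in the other p53_activated and 75.3 to 180.3 CPM in the control libraries. In control replicates 1 to 5 the erythroid sums were 2875, 1511, 828.7, 4487 and 4120 CPM. Chaf1a was at 20.8, 24.9, 23.5, 25.4 and 30.6 CPM in these libraries. The exons of Chaf1a share 52.5% of their length with Ubxn6 on the opposite strand, so its counts are uncertain. Ubxn6 averaged 206 CPM in p53_activated and 205 CPM in control embryos, with an edgeR adjusted p of 0.997.

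Chaf1b, the middle subunit of CAF-1, did not pass, with means of 269 ± 38.04 CPM in p53_activated and 244 ± 29.5 CPM in control embryos (SD, n = 5 each) and a log2 fold change of 0.14 ± 0.11 (edgeR adjusted p = 0.512). Uhrf1, which reads hemimethylated DNA behind the fork and recruits the maintenance methyltransferase Dnmt1 (ENSMUSG00000001228, GRCm38 chr17:56303321-56323486, plus strand), had 350.1, 382, 356, 351 and 378 CPM in the p53_activated embryos, against 279, 268, 319, 296 and 321 CPM in the control embryos. The lowest p53_activated embryo was above the highest control embryo, and the coefficients of variation were 4.24% in p53_activated and 7.96% in control embryos. The means were 363 ± 15.4 CPM in p53_activated and 297 ± 23.6 CPM in control embryos (SD, n = 5 each), a 1.23-fold difference, with a log2 fold change of 0.29 ± 0.08 and an edgeR adjusted p of 0.0375. The call was lost in 12 of 23 alternatives, over which the adjusted p ran from 0.0126 to 0.159. Among the fits without 1 library it held only without p53_activated replicate 4 or control replicate 3 or 5, and the other 7 gave log2 fold changes of 0.26 to 0.31 with adjusted p of 0.0502 to 0.0968.

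RefSeq promoter windows of the called genes are shown for their E2F motifs, since E2F factors are the known regulators of many genes of this list. Each window runs from 250 bases before a transcript start to 50 after it, on GRCm38.p6, written 5′ to 3′ along the gene's strand. Capitals mark matches to the E2F letters searched, which are given below. The windows are Chaf1a at chr17:56040166-56040465 (plus strand), the downstream window of Uhrf1 at chr17:56304063-56304362 (plus strand) and Rrm2 at chr12:24708004-24708303 (plus strand). The upstream window of Uhrf1 is not printed, and Ccnd1 was not matched to a window.
Chaf1a: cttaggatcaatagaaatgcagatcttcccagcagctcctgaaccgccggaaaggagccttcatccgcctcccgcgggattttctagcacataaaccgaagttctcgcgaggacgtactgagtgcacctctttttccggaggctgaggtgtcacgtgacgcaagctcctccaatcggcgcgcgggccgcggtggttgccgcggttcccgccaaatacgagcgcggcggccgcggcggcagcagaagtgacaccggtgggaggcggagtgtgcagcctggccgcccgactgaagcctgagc
Uhrf1: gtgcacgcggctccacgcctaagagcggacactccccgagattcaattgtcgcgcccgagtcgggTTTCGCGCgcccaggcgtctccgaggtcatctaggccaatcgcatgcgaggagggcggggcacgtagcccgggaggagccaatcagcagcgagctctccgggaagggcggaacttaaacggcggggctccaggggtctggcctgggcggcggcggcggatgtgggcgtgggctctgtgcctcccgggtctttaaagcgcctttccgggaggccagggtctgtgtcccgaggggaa
Rrm2: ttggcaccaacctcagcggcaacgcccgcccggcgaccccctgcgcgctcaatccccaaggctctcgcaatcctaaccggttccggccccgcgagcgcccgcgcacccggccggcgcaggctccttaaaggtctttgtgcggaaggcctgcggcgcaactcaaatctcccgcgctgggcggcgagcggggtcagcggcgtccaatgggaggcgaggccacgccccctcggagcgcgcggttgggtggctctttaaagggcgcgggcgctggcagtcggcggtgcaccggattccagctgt
The letters searched were TTTCCCGC, TTTCGCGC, TTTGCCGC and TTTGGCGC on both strands, with overlapping matches counted separately. Uhrf1 holds 1 of them, TTTCGCGC, starting 185 bases before the transcript start, and the windows of Chaf1a and Rrm2 hold 0, as does the upstream window of Uhrf1. Among the 47 members with a window (56 windows in all), 18 windows (32.1%) of 18 genes hold a match, beside 2.26% of all 32851 windows of the table. The CCAAT box, searched as CCAAT on both strands, was in 58.9% of member windows and 37.4% of all windows. The cell cycle element CHR, searched as TTTGAA on both strands, was in 14.3% of member windows and 17.9% of all windows. A match is a match of letters and was not tested as a binding site.

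Of the 8 genes of the MCM group, 0 were called in either direction with edgeR, DESeq2 or limma-voom, and 1 was higher at an unadjusted p under 0.05. Over all genes tested, edgeR called 7.23% in either direction, and 12% were higher at that unadjusted limit. In so small a group a count of 0 calls is near the edgeR share. Mcm7, a subunit of the hexamer, had the largest fold change among them, with 329.8, 326, 327, 254 and 281 CPM in the p53_activated embryos, against 178, 222, 266, 262 and 283 CPM in the control embryos. Replicates 1 to 3 of the p53_activated group were above every control embryo, replicate 4 was below 3 of them, and control replicate 1 was the lowest. The log2 fold change was 0.33 ± 0.12 (edgeR adjusted p = 0.116). Mcm7 shares 12.58% of its exon length with other genes, so its counts are uncertain. Mcm6, the most abundant subunit per length at 182 ± 16.2 TPM in p53_activated and 188 ± 11.5 TPM in control embryos (SD, n = 5 each), had 399, 423, 366, 324 and 345.5 CPM in the p53_activated embryos, against 369, 383, 382, 363 and 395 CPM in the control embryos. The control embryos lay inside the p53_activated range and the log2 fold change was -0.03 ± 0.09 (edgeR adjusted p = 0.898). The other subunits Mcm2, Mcm3, Mcm4 and Mcm5 had log2 fold changes of 0.05 to 0.22, the helicase-related Mcm8 0.22 and Mcm10 0.09. The promoter windows of Mcm6 and Mcm7 are shown as picked examples of members with several E2F matches. They are Mcm6 at chr1:128359656-128359955 (minus strand) and the upstream window of Mcm7 at chr5:138171834-138172133 (minus strand), both from RefSeq on GRCm38.p6.
Mcm6: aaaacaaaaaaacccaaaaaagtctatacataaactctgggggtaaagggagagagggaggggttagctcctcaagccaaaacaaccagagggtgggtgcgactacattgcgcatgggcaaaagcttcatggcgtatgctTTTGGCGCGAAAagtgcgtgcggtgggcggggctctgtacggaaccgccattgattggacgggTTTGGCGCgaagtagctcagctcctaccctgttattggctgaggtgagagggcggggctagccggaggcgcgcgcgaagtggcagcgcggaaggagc
Mcm7: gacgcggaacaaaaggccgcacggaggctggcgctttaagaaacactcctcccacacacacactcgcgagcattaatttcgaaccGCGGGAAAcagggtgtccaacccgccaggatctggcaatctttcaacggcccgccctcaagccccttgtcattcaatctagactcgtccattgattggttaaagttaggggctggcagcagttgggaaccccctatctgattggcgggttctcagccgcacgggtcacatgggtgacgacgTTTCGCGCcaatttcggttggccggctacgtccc
Mcm6 holds 3 matches, 2 of which overlap on opposite strands, and the upstream window of Mcm7 holds 2, 1 on each strand. The other window of Mcm7, which is not printed, holds 0. Whether such matches go with the fold changes was not tested.

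Of the 9 genes that recognise and license origins, 0 were called with edgeR, DESeq2 or limma-voom, and 3 were higher at an unadjusted p under 0.05. These were Orc2, Cdc6 and Cdt1. The shares over all genes tested were 7.23% called in either direction by edgeR and 12% higher at the unadjusted limit. For a group of this size 0 calls is near the edgeR share. Orc2, a subunit of the origin recognition complex, had 17.2, 20.01, 22.6, 20.3 and 21.3 CPM in the p53_activated embryos, against 13.99, 15.97, 17.4, 15.8 and 18.9 CPM in the control embryos. Replicates 2 to 5 of the p53_activated group were above every control embryo and replicate 1 lay within the control range (log2 fold change 0.31 ± 0.13, edgeR adjusted p = 0.172). Orc2 shares 29.82% of its exon length with Nif3l1 on the opposite strand, so its counts are uncertain. Nif3l1 averaged 86.1 CPM in p53_activated and 77.8 CPM in control embryos (edgeR adjusted p = 0.466). Cdc6, which with Cdt1 loads the helicase, had 22.6, 22.9, 19.6, 19.8 and 23.7 CPM in the p53_activated embryos, against 15.8, 16.1, 20.6, 17.2 and 18.7 CPM in the control embryos. The groups overlapped through control replicate 3 (log2 fold change 0.29 ± 0.13, edgeR adjusted p = 0.179). Cdt1 had 76.2, 66.96, 78.8, 66.9 and 65.6 CPM in the p53_activated embryos, against 46.6, 53.1, 68.7, 62.5 and 59.1 CPM in the control embryos. Control replicate 3 again lay among the p53_activated embryos and the other control embryos below them (log2 fold change 0.29 ± 0.11, edgeR adjusted p = 0.129). Gmnn, encoding geminin, the inhibitor of Cdt1, was the most abundant of the group per length at 189 ± 25.6 TPM in p53_activated and 199.8 ± 45.1 TPM in control embryos (SD, n = 5 each). Its levels were 144, 122, 134, 97.1 and 109.6 CPM in the p53_activated embryos, against 88.1, 109, 155, 137 and 143 CPM in the control embryos. The control range contained all p53_activated embryos (log2 fold change -0.06 ± 0.15, edgeR adjusted p = 0.861). The other 5 subunits of the origin recognition complex had log2 fold changes of -0.15 to 0.15.

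Among the 7 origin firing genes 0 were called with edgeR, DESeq2 or limma-voom, and 0 had an unadjusted p under 0.05. Of all genes tested, edgeR called 7.23%, so 0 calls in so few genes is near that share. At the unadjusted limit 12% of all genes tested were higher and 10.6% lower. Gins1, a GINS subunit, had 79.6, 63.4, 65.5, 51.04 and 61.9 CPM in the p53_activated embryos, against 61.2, 67.6, 80.5, 79.2 and 81.9 CPM in the control embryos. The groups overlapped, and its log2 fold change of -0.21 ± 0.12 was the lowest of all 59 genes (edgeR adjusted p = 0.34). Gins3, another GINS subunit, had 17.2, 22.1, 17.2, 14.7 and 20.5 CPM in the p53_activated embryos, against 13.2, 13.6, 19.02, 11.996 and 16.5 CPM in the control embryos. It overlapped as well and had the highest fold change of the group (log2 fold change 0.30 ± 0.16, edgeR adjusted p = 0.291). The subunits of this 4-member complex lay on both sides of 0, with Gins2 at 0.02 and Gins4 at -0.09. Gins2 shares 67.32% of its exon length with Gse1, which was higher in p53_activated embryos (21.99 CPM, against 5.70 CPM in control embryos, log2 fold change 1.97 ± 0.43, edgeR adjusted p = 0.0201), so its counts are uncertain. The S phase kinase Cdc7 and its activator Dbf4 had log2 fold changes of -0.05 and 0.17, and Cdc45, the partner of the MCM ring, had 0.15.

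The 6 polymerase and primase genes held 0 calls with edgeR, DESeq2 or limma-voom and 2 members higher at an unadjusted p under 0.05, Pola1 and Pole. Beside this, edgeR called 7.23% of all genes tested, and 12% were higher at the unadjusted limit. With so few genes, 0 calls is near the edgeR share. Pola1, the catalytic subunit of polymerase alpha that starts new strands, had 15.7, 17.6, 20.4, 25.1 and 19.5 CPM in the p53_activated embryos, against 13.8, 16.4, 15.2, 15.3 and 16.8 CPM in the control embryos. All but replicate 1 of the p53_activated embryos were above every control embryo (log2 fold change 0.35 ± 0.14, edgeR adjusted p = 0.161). Pole, the leading-strand polymerase, had 63.2, 58.3, 44.3, 54.3 and 56.8 CPM in the p53_activated embryos, against 45.2, 48.7, 48.4, 44.5 and 36.4 CPM in the control embryos. All but replicate 3 of the p53_activated embryos were above every control embryo (log2 fold change 0.31 ± 0.12, edgeR adjusted p = 0.118). Pold1, the lagging-strand polymerase, was the most abundant of the group per length at 141 ± 12.2 TPM in p53_activated and 132 ± 18.2 TPM in control embryos (SD, n = 5 each). Its levels were 276, 326, 356, 256 and 289 CPM in the p53_activated embryos, against 329, 268, 299, 232 and 255 CPM in the control embryos. Control replicate 1 had the highest control value here, and the groups overlapped (log2 fold change 0.12 ± 0.11, edgeR adjusted p = 0.58). Prim2, the large primase subunit, had the lowest level per length of all 59 genes, at 2.06 ± 0.454 TPM in p53_activated and 1.93 ± 0.826 TPM in control embryos (SD, n = 5 each).

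The 9 genes of the sliding clamp, the clamp loader and the single-strand binding protein RPA held 0 calls with edgeR, DESeq2 or limma-voom, and 0 had an unadjusted p under 0.05. Of all genes tested, 7.23% were called with edgeR, and 0 calls in a small group is near that share. At the unadjusted limit 12% of all genes tested were higher and 10.6% lower. The log2 fold changes of the group ran from -0.20 for Rfc4 to 0.25 for Rfc3, both clamp loader subunits. Rfc2, another loader subunit, had the next level per length of the list after Cdk4, at 292 ± 13.6 TPM in p53_activated and 284 ± 16.5 TPM in control embryos (SD, n = 5 each). Its levels were 779, 858, 883, 683 and 833 CPM in the p53_activated embryos, against 869.8, 759.8, 742, 741 and 766 CPM in the control embryos. The groups overlapped, with control replicate 1 above the other control embryos (log2 fold change 0.06 ± 0.09, edgeR adjusted p = 0.753). Pcna, the sliding clamp and a common marker of proliferating cells, averaged 118 ± 4.39 CPM in p53_activated and 112 ± 33.8 CPM in control embryos (SD, n = 5 each), with a log2 fold change of 0.07 ± 0.16 (edgeR adjusted p = 0.862). It varied least of all members among the p53_activated embryos, with a coefficient of variation of 3.73%, and had 30.03% among the control embryos. Its pseudogene Pcna-ps2 drew 917 counts over the 10 libraries.

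**Figure D3:**
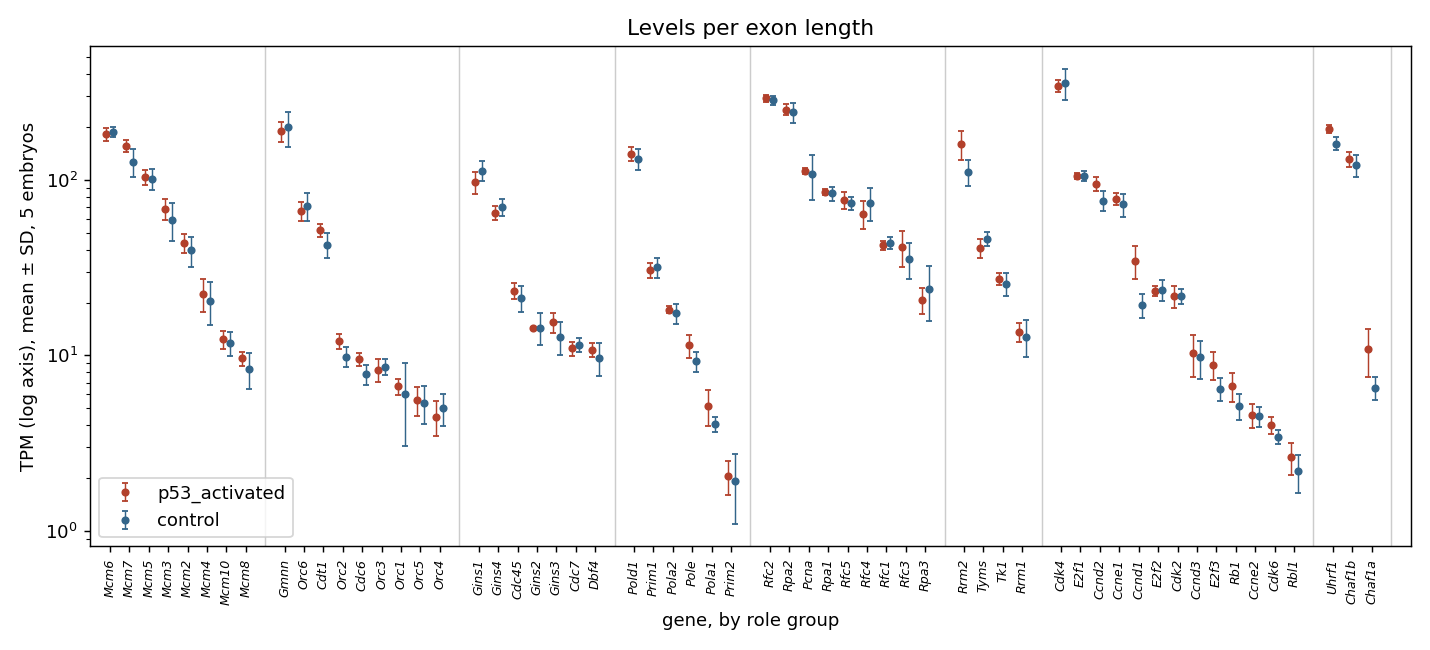
Level of each gene in TPM on a logarithmic vertical axis, with the genes along the horizontal axis by role group. Points are means and bars are SD over 5 embryos, with p53_activated left of control for each gene. Cdk4 is the highest, at 341 ± 26.95 TPM in p53_activated and 358 ± 72.2 TPM in control embryos, and Prim2 is the lowest, at 2.06 ± 0.45 TPM in p53_activated and 1.93 ± 0.83 TPM in control embryos.

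The libraries did not contribute equally to the fold changes above 0. Over the 59 genes, the mean log2 CPM centred on each gene's mean was 0.14, 0.06, 0.11, -0.03 and 0.06 in the p53_activated libraries, against -0.31, -0.15, 0.07, -0.03 and 0.06 in the control libraries. Control replicates 1 and 2 stood below all others and the remaining control libraries lay between -0.03 and 0.07, while the p53_activated libraries lay between -0.03 and 0.14. Control replicate 1 was the lowest library for 27 of 59 members (45.8%) and for 16.7% of all genes tested, and control replicate 2 for 10 members (16.9%) and 8.12% of all genes tested. In the same libraries the embryonic globin transcripts Hbb-y and Hbb-bh1 stood at ratios of 4.97 and 2.69, while the other 8 libraries had ratios of 1.59 to 2.08. Hbb-y gains on Hbb-bh1 as yolk sac erythropoiesis matures. The part of embryo stage in the levels of these libraries was not tested.

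**Figure D4:**
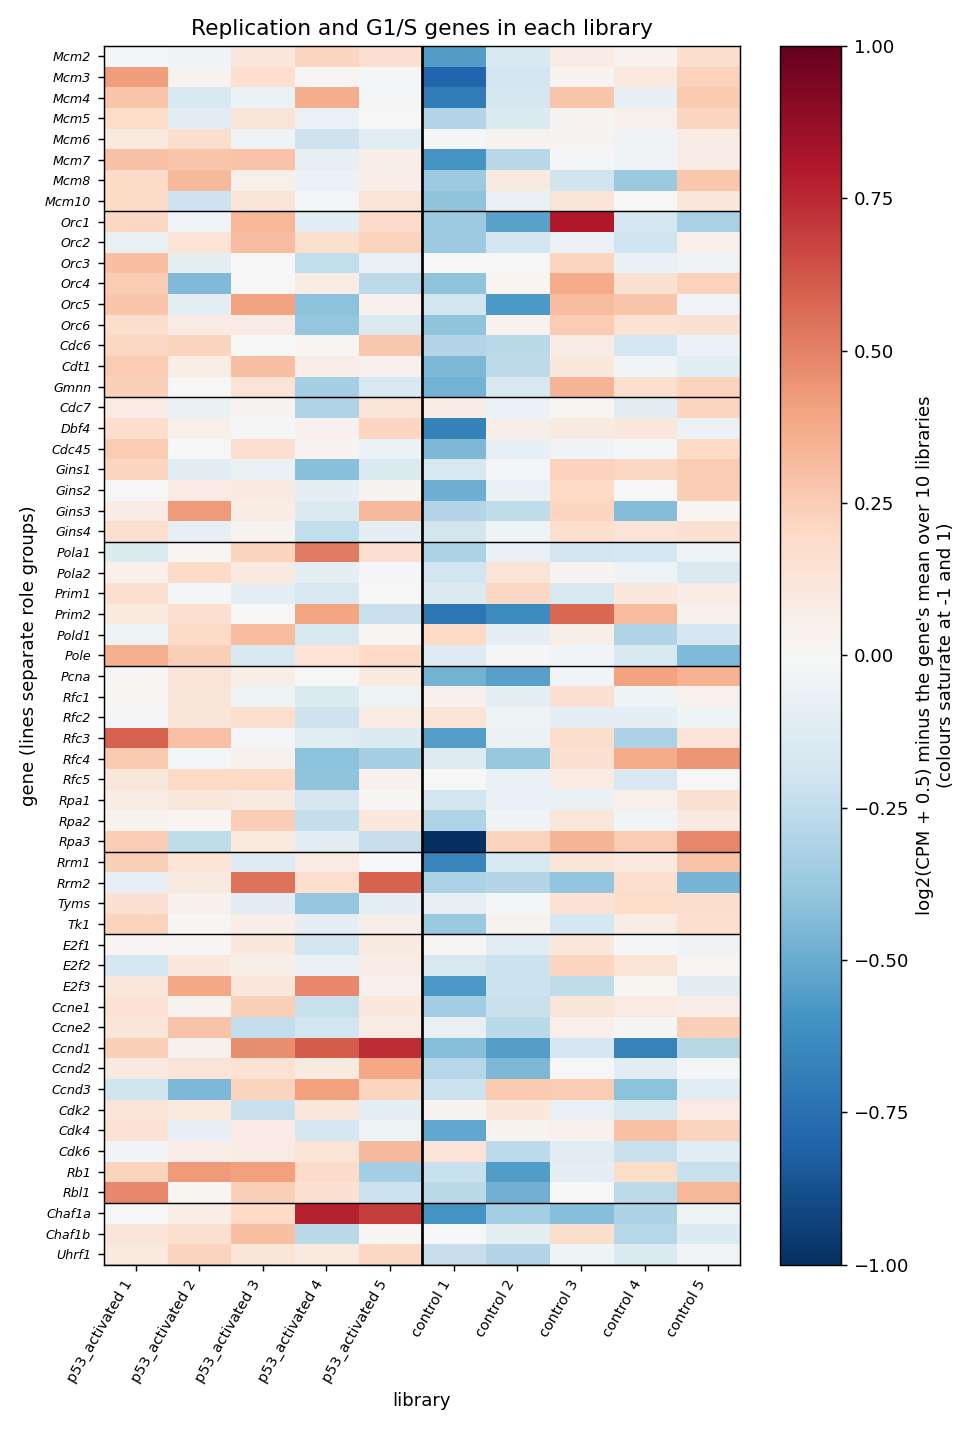
Each of the 59 genes (rows, grouped by role) in each of the 10 libraries (columns, p53_activated left of control), coloured by log2(CPM + 0.5) minus the gene's mean over the 10 libraries. Colours saturate at -1 and 1. The column of control 1 is the bluest, and it is the lowest library for 27 genes.

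Without control replicates 1 and 2, the median log2 fold change of the 59 genes was -0.01, and 29 of 59 lay above 0, against 44 with all libraries. These 2 control libraries had the lowest levels of the 59 genes, so leaving them out lowers the fold changes on average by construction. Without p53_activated replicates 4 and 5 the median was 0.14 and 51 of 59 lay above 0, and Ccnd1 was again the one member called, while the fits without 1 library had 39 to 48 above 0. Those 2 were the lowest p53_activated libraries, so the rise in the median was likewise set by the choice. The direction of neither shift is a result. Without control replicates 1 and 2, only Ccnd1 was called, where 3.07% of all genes tested were called higher. The medians of the role groups are given as description only, since the libraries left out were those with the lowest levels of these genes. For the MCM group the median was -0.02 without those libraries and 0.15 with them. For origin recognition and licensing it was -0.08 without them and 0.07 with them, and for nucleotide supply -0.03 and 0.10. For the clamp, clamp loader and RPA group it was -0.02 and 0.06, and for origin firing -0.07 and 0.02. The medians were 0.15 without and 0.11 with them for the polymerases and primase, and 0.11 in both fits for the G1 regulators. For the chromatin group they were 0.22 without and 0.29 with them. The groups are small, down to 3 genes, and differences between them were not tested.

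**Figure D5:**
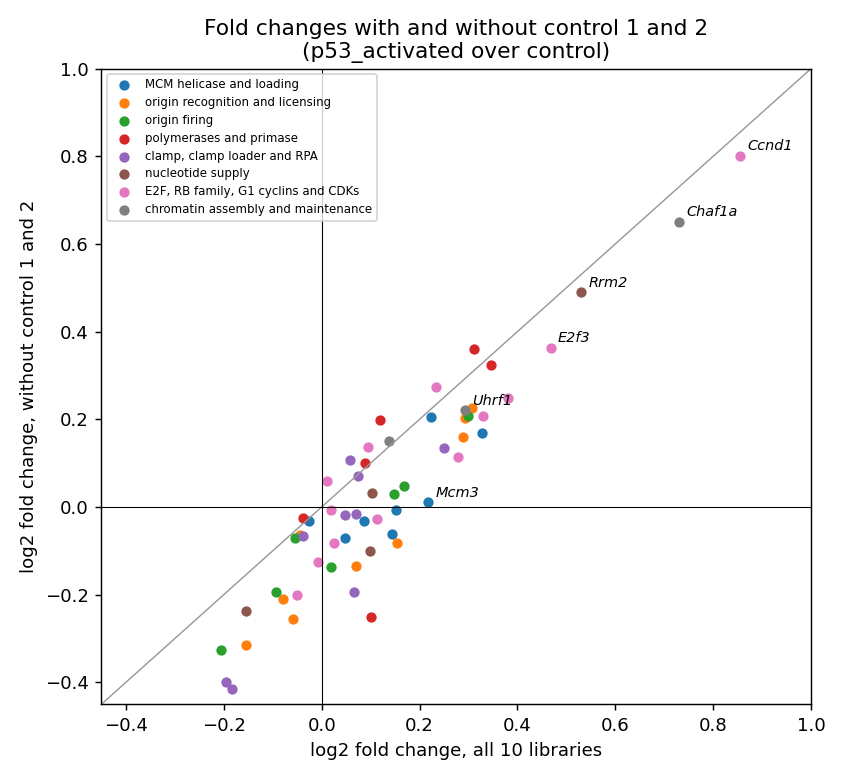
Log2 fold change of each gene, p53_activated over control, with all 10 libraries on the horizontal axis and without control replicates 1 and 2 on the vertical axis. Each point is a gene, coloured by role group, and the grey line marks equal values. Below the line lie 50 of 59 points, 29 stay above 0 on the vertical axis, and Ccnd1 is the farthest from 0 on both. Control replicates 1 and 2 had the lowest levels of these genes, so a shift below the line follows from leaving them out.

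The wider set of 59 further replication and G1/S genes was listed by function, with earlier results of these data known. Its share of calls is therefore a description and not that of an independent list. Of these, 58 were tested and 8 were called higher (13.8%, beside 4.49% of all genes tested). The count of lower genes was 0 with edgeR, with DESeq2, with limma-voom and at an unadjusted p under 0.05. Over all genes tested, edgeR called 2.74% lower, so 0 lower calls in a list of this size is near that share. At the unadjusted limit 10.6% of all genes tested were lower. Tfdp1, the dimerisation partner of the E2F factors, rose in every alternative tried. It averaged 42.6 ± 2.64 CPM in p53_activated embryos and 29.6 ± 3.16 CPM in control embryos (SD, n = 5 each), with a log2 fold change of 0.53 ± 0.11 (edgeR adjusted p = 0.00713). Dnmt1, the maintenance DNA methyltransferase that works with Uhrf1, had 65.5, 71.4, 73.8, 114 and 105 CPM in the p53_activated embryos, against 34.3, 51.4, 40.7, 54.7 and 60.5 CPM in the control embryos. The groups did not overlap, and p53_activated replicates 4 and 5 were the highest, as for Chaf1a (log2 fold change 0.83 ± 0.18, edgeR adjusted p = 0.0154). The other 6 called were the repressor E2f7, the fork and checkpoint proteins Wdhd1, Topbp1, Clspn and Timeless, and the alternative clamp loader subunit Chtf18. Their log2 fold changes ran from 0.46 to 0.59 and their edgeR adjusted p from 0.0289 to 0.0497. Without control replicates 1 and 2, 1 of the 8 calls was left, Tfdp1. Each of the other 6 was also lost without 1 library, for 5 to 9 of the 10 libraries taken in turn, and the list as a whole then held 2 to 9 calls, with 2 without p53_activated replicate 2, control replicate 1 or control replicate 2. Dnmt1 was lost without p53_activated replicates 4 and 5 (log2 fold change 0.55, edgeR adjusted p = 0.071) and without control replicates 1 and 2 (0.73, edgeR adjusted p = 0.0876).

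Beside these genes, the inhibitors of the G1 kinases differed in direction. While Cdkn1a rose, Cdkn1c, which encodes p57, fell to 235 ± 22.8 CPM in p53_activated embryos, against 403 ± 55.3 CPM in control embryos (SD, n = 5 each). Its log2 fold change was -0.78 ± 0.10 (edgeR adjusted p = 0.000181), and it was called in 23 of 23 alternatives. Cdkn2d, which encodes an inhibitor of Cdk4 and Cdk6, averaged 26.7 ± 5.04 CPM in p53_activated and 36.9 ± 3.16 CPM in control embryos (SD, n = 5 each; log2 fold change -0.47 ± 0.14, edgeR adjusted p = 0.0482). That call was lost in 15 of 23 alternatives, 8 of them fits without 1 library (every library but p53_activated replicates 1 and 3), with adjusted p of 0.0505 to 0.116 there. Cdkn1b, encoding p27, did not pass (log2 fold change -0.27 ± 0.17, edgeR adjusted p = 0.383), and Cdkn2a, Cdkn2b and Cdkn2c had too few counts to be tested.

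In the authors' deposited table, 6 of the 59 genes had an adjusted p under 0.05 with a positive fold change (10.2%, beside 6.34% of all genes with an adjusted p there) and 0 with a negative one. The genes were the 4 called here with E2f3 and Ccnd2. In either direction the share over all genes of the authors' deposited table was 10.8%. The authors' deposited table gives E2f3 a log2 fold change of 0.44 with an adjusted p of 0.0331 and Ccnd2 one of 0.32 with an adjusted p of 0.0337.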

How the data were processed

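Raw counts by Ensembl gene identifier were deposited by the authors for the 10 libraries, with each column matched to its sample by the numbers in the labels. Per the file headers, the authors' own comparison table gives for each gene its mean normalized count (a signal), log2 fold change and standard error, test statistic (a score) and p-values. Named in the submitters' processing notes, with no roles, are the build GRCm38 and the tools DESeq2 1.14.1, HTSeq 0.6.1, SAMtools 1.3.1 and HISAT2 2.0.4. Neither annotation release nor strand setting is given in the sources used here, and reads of overlapping genes cannot be told apart: 12 members share over 10% of their exon length with another gene.

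Counts were filtered with filterByExpr (minimum count 10, minimum total 15), scaled by TMM and fitted with edgeR 4.0.16 (robust quasi-likelihood F-test, R 4.3.3) on all 10 libraries with no covariate. Benjamini-Hochberg adjustment ran over all 14528 genes tested with a threshold of 0.05. Dividing the log2 fold change by the root of F gave its standard error. TPM were computed here from the counts and GENCODE M21 exon lengths, in which 99.5% of the identifiers were found. Every pair of libraries differed by more than sampling noise (chi-square over its degrees of freedom 16.5 to 87.9), and each is a separate embryo. The calculation was tested on simulated data, with 50 genes changed at each fold. It called 2% of those changed 1.25-fold, 20% at 1.5-fold, 64% at 2-fold and 94% at 4-fold. Of its 95 calls 5 were false. A member that did not pass can therefore still differ by a small fold.

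The members, role groups, wider list, motifs and tests were chosen with earlier results of these data known. Values in every embryo are given for members that were called, whose groups did not overlap, that had the 15 smallest p or that had the highest TPM of a role group, which makes 21 members. Other genes are named as checks, as CDK inhibitors or as called members of the wider list. Alternatives were other scalings and filters, limma-voom (limma 3.58.1), DESeq2 1.42.0, non-robust dispersions, replicate number or embryo sex as a term, removal of a length trend (lowess span 0.3), and fits without 1 or 2 libraries.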

Additional observations from a re-analysis of the deposited data

Results flagged for a closer look

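The gap between the highest or lowest embryo and its nearest neighbour was read against the whole range in 118 groups of 5 embryos (59 genes in each group). It passed Dixon's limit of 0.710 in 7 of them, where chance flags about 1 in 20 groups. In p53_activated embryos this was Ccnd2, at 453 CPM in replicate 5 and 367 to 382 CPM in the others. The other flags were in control embryos. Control replicate 1 had 23.8 CPM of Dbf4, against 36.6 to 41.5 CPM in the other control embryos. The same embryo had 4.83 CPM of Rpa3, against 12.4 to 14.9 CPM, and 869.8 CPM of Rfc2, against 741 to 766 CPM. In control replicate 3, Orc1 was at 16.5 CPM, against 6.21 to 8.10 CPM in the other control embryos, and Orc3 at 26.0 CPM, against 21.2 to 22.4 CPM. Rrm2 was at 178 CPM in control replicate 4, against 115 to 129 CPM in the other control embryos.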

How the results depend on the processing

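The count of members called higher was 4. It was 2 with upper quartile scaling and with embryo sex as a term, 1 without control replicates 1 and 2 and 1 without p53_activated replicates 4 and 5. Leaving out 1 library gave 2 to 4, with 2 without p53_activated replicate 3 or 5 and without control replicate 1 or 2. Members called lower stayed at 0 in every alternative. Members with a fold change above 0 numbered 44, with 29 without control replicates 1 and 2, 51 without p53_activated replicates 4 and 5 and 39 to 48 with 1 library left out, where 39 was without control replicate 1 and 48 without p53_activated replicate 4 or control replicate 3. Of the wider list, 8 were called, 4 with upper quartile scaling, 3 with total counts or the length trend removed, 2 with embryo sex as a term or without p53_activated replicates 4 and 5, 1 without control replicates 1 and 2, and 2 to 9 with 1 library left out. Over all genes the 1050 calls were 1621 with DESeq2, 656 without control replicates 1 and 2 and 636 to 1025 with 1 library left out (652 without p53_activated replicate 5, 636 without control replicate 2, 692 without control replicate 4). The 652 higher calls were 430 to 707 with 1 library left out, the fewest without p53_activated replicate 5. The 398 lower calls were 659 with DESeq2, 245 with embryo sex as a term, 194 without control replicates 1 and 2 and 192 to 433 with 1 library left out, with 230, 226 and 222 without p53_activated replicates 2, 3 and 5 and 192 and 255 without control replicates 2 and 4. The cause was not tested, beyond the smaller number of embryos. Scaling moved the median of all genes by under 0.1 on the log2 scale.

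Of the uncalled genes given with every embryo, 3 changed sign. Without p53_activated replicates 4 and 5, the log2 fold change of Mcm6 was 0.0779, that of Gmnn 0.0883 and that of Cdk4 0.0210. With the length trend removed that of Gmnn was 0.0419. With 1 library left out Mcm6 ran from -0.0753 to 0.0207, Gmnn from -0.164 to 0.0326 and Cdk4 from -0.162 to 0.0210.

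Same-numbered embryos of the groups correlated at -0.05, 0.03, 0.11, 0.06 and 0.06 in their deviations from the group means. Only replicate 3 matched its own number best, so the numbers gave no clear pairing. A shared litter need not follow the replicate number, so this reading cannot show it, and litter was not a term in any fit. With the replicate number as a block, 2 members, 3 genes of the wider list and 804 genes in all were called.

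Precision is limited by 5 embryos a group and by a common biological coefficient of variation of 25.5% over all genes tested. The coefficient of variation in CPM is another measure, which includes sampling noise. Its median over the members was 11.5% in p53_activated and 14.3% in control embryos. For all genes tested these medians were 19.0% and 19.8%, with no matching for level, so the difference is not read as a trait of the members.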
